A study of Mus musculus with 6 samples.

Results

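The cells described here are lymph node cells chosen for RNA that marks nonclassical monocytes. A cell was selected when it held at least 1 unique molecular identifier (UMI, the tag that marks a single captured RNA molecule) of at least 3 of 6 genes, namely Ace, Treml4, Spn, Eno3, Cd300e and Pglyrp1. Of 12139 kept cells, 883 met this gate and are called gated cells below. Of these, 855 (96.8%) also held Csf1r, the receptor for colony-stimulating factor 1 that monocytes and macrophages carry. The gated cells were compared with the other 7622 Csf1r-positive kept cells, and with 3239 of those that passed a gate for classical monocytes (at least 3 of Ly6c2, Ccr2, F13a1, Chil3, Vcan and Hp).

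All 4 mice were CD169Tom animals of the genotype Cd169Cre/+ Tdtomato fl/fl, so that the unimmunized and the immunized mice carried the same alleles. In these mice Cre is made from the Cd169 (Siglec1) locus and removes a stop from a tdTomato gene. The label is lasting and passes to daughter cells, whether or not Cd169 is still expressed. Inguinal lymph nodes were taken from 2 unimmunized mice and from 2 mice at 9 days after immunization with hen egg lysozyme (HEL), and live CD11b hi, TOM+ cells were sorted, so monocytes lacking either mark were sorted against. Cells outside the aim of the sort were still present, since 1065 kept cells held T cell genes and 265 B cell genes without Csf1r. Each mouse carried its own hashtag antibody, and the pooled cells were read in 2 10X captures by CITE-seq, which counts RNA and 6 surface antibodies in each cell.

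Unimmunized mice 1 and 2 gave 244 and 38 gated cells. Immunized mice 1 and 2 gave 398 and 203. Summed over these cells, 2348885, 297018, 4471171 and 2998609 UMIs lay behind the values in that order, and unimmunized mouse 2 was thus the least deeply measured. Depth per cell was similar in both populations, with a median of 9728 UMIs in a gated cell and 11757 in another Csf1r-positive cell. The median share of mitochondrial UMIs was 2.98% and 3.58%. The captures gave 138, 19, 214 and 113 gated cells (capture 1) and 106, 19, 184 and 90 (capture 2) over the 4 mice, after the removal of 621 barcode sequences that the captures shared.

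The name nonclassical monocyte held for the gated cells only in part. The 15 nonclassical markers that the gate did not use summed to 5970, 7286, 6368 and 4561 CPM (UMIs of a gene scaled to a common total per population and mouse) in the gated cells of unimmunized mice 1 and 2 and immunized mice 1 and 2, against 2011, 2016, 2743 and 2470 in the other Csf1r-positive cells, with no overlap between populations. However, 505 of the 883 gated cells (57.2%) passed the classical gate as well, beside 3239 of the 7622 other Csf1r-positive cells. Of the gated cells, 52 held at least 2 B cell or at least 2 T cell genes. Immunized mouse 2 stood apart: 144 of its 203 gated cells had exactly 3 gate genes, compared with 101 of 244, 16 of 38 and 172 of 398 in the other mice. A summed level cannot tell fewer cells of a kind from less RNA in each.

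Monocytes leave the bone marrow in a Ly6C-high, classical form that enters inflamed tissue through CCR2. Part of them turn into a Ly6C-low, nonclassical form that crawls along the inner wall of blood vessels, held by the integrin LFA-1 and by the fractalkine receptor CX3CR1. That step needs the nuclear receptor NR4A1, with C/EBPβ and KLF2 as further regulators, and survival of the nonclassical form is tied to CSF1R signals and BCL2. Lymph nodes also hold macrophages of the subcapsular and medullary sinuses, which carry CD169, and C1q-bearing macrophages that clear dead cells.

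The mouse of each cell and its 6 surface proteins were read from short designed DNA tags on the antibodies, so these tags carry every comparison between mice and every protein value below. Both sets are printed 5′ to 3′ as the study listed them. The hashtags come first, in the order of unimmunized mice 1 and 2 and immunized mice 1 and 2.
Hashtag 1: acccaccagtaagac
Hashtag 2: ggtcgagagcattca
Hashtag 3: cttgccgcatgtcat
Hashtag 4: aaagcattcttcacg
CD169: attgacgacagtcat
CD68: ctttctttcacggga
F4/80: ttaacttcagcccgt
CD11c: gttatggacgcttgc
Ly-6c: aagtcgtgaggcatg
Ly-6g: acattgacgcaacta

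The gate genes chose the cells, and so their values are given without a test. Ace (chr11:105967945-105989964, plus strand of GRCm38) encodes angiotensin-converting enzyme, a peptidase on the cell surface. Its level was 316, 387, 214 and 109 CPM in the gated cells of the 4 mice and 23.0, 19.3, 10.9 and 2.45 CPM in the other Csf1r-positive cells. In both populations it was lowest in immunized mouse 2. Treml4 (chr17:48264295-48275360, plus strand) encodes a receptor of the TREM family that binds dying cells. It stood at 179, 249, 191 and 160 CPM against 25.8, 31.7, 49.9 and 38.3 CPM, a narrower range over mice than that of Ace.

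Eno3 (chr11:70657202-70662513, plus strand), the muscle form of the glycolytic enzyme enolase, stood at 286, 333, 274 and 137 CPM in gated cells and 13.9, 27.3, 12.5 and 8.47 CPM in the others. Cd300e (chr11:115051917-115062177, minus strand), an activating receptor of myeloid cells, stood at 89.8, 101, 51.4 and 41.4 CPM and 1.63, 0.992, 5.22 and 1.95 CPM. The ratio of the population means was 29 for Cd300e, 18.4 for Ace, 16.6 for Eno3 and 5.35 for Treml4. By the ratio of means Cd300e was thus the least shared of these genes with other cells, although only 30.5% of gated cells held it. That rank held in both unimmunized mice but not in the immunized mice. There the ratio was larger for Ace, at 214 against 10.9 CPM and 109 against 2.45 CPM.

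The remaining gate genes were less specific to myeloid cells. Spn (chr7:127132232-127137823, minus strand) encodes leukosialin, CD43, which T cells also carry. It stood at 216, 202, 140 and 89.7 CPM in gated cells and 67.5, 32.7, 26.4 and 19.9 CPM in the others. A Spn UMI was found in 79.2% of gated cells (median 9728 UMIs), 21.8% of other Csf1r-positive cells and 58.7% of 1065 kept cells with T cell genes and no Csf1r (median 6027 UMIs). Pglyrp1 (chr7:18871331-18890459, plus strand) encodes a peptidoglycan-binding protein. It was detected in 49.5% of gated cells, 4.83% of the other Csf1r-positive cells and 25.3% of 265 kept cells with B cell genes and no Csf1r (median 4184 UMIs). Among gated cells its level was 238, 259, 179 and 48.0 CPM, so immunized mouse 2 held the least. Ace and Treml4 were rarer in those lymphocytes: Ace was in 0.751% of the T cell set and 1.13% of the B cell set, and Treml4 in 1.13% and 2.26%.

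**Figure D1:**
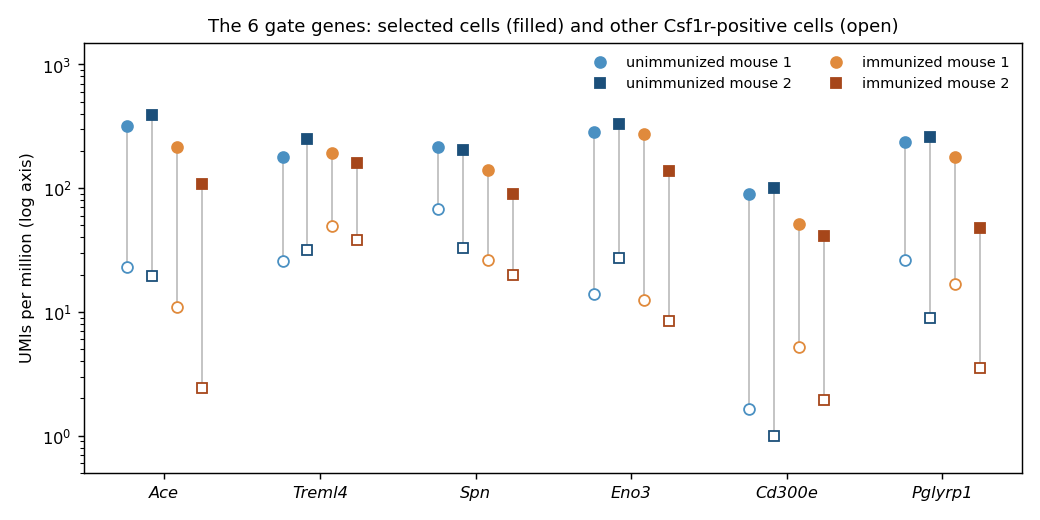
Level of each gate gene in CPM (log axis) by mouse, with filled points for gated cells and open points for the other Csf1r-positive cells. Every filled point lies above the open points of its gene, and immunized mouse 2 has the lowest filled point for all 6 genes (Ace at 109 CPM, Pglyrp1 at 48.0 CPM).

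Gate genes were found together in single cells to unlike degrees. Ace and Treml4 shared 695 kept cells, which were 67.5% of cells with Ace but 22.0% of cells with Treml4. Of the cells with Cd300e, 62.6% also held Treml4 and 57.3% held Spn. Of the cells with Pglyrp1, 53.3% held Spn and 23.3% held Ace. For comparison, Treml4 was in 26.0% of all kept cells, Spn in 27.9% and Ace in 8.49%, so each of these partners was more frequent in cells with the other gate gene than in kept cells at large.

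The start regions of the gate genes were searched for 3 letter strings, on both strands of the RefSeq windows from 250 bases before to 50 bases after each start (GRCm38.p6, 7 windows for 6 genes). The strings were the NR4A response element AAAGGTCA, the PU.1-type ETS site GAGGAAGT and the KLF-type site CCACACCC, which 1.51%, 3.20% and 3.56% of all 32851 such windows held. One match was found, a KLF-type site 53 bases upstream of the Pglyrp1 start in RefSeq. This start lies inside the span given above for Pglyrp1, whose annotation begins further upstream. It is shown with its flanks at chr7:18884626-18884655, plus strand, with the match in capitals.
Pglyrp1: ccttcctctgcCCACACCCttcaccatgcc

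The number of gate genes in a cell ordered the gated cells themselves. Of the kept cells, 1684 held 2 gate genes and fell just outside the gate, and 433 held 3 and fell just inside it. A further 199, 171 and 80 cells held 4, 5 and 6. Just outside the gate Ace stood at 22.4 CPM and Eno3 at 35 CPM, and just inside at 104.9 and 84.2 CPM. Cells with 2 gate genes were Csf1r-positive in 73.8% of cases, those with 3 in 94.7% and those with 4 in 98.0%. Median depth went the other way, with 11237.5 UMIs at 2 gate genes, 11059 at 3 and 7161.5 at 6.

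Genes outside the gate followed the same order, given here as a description because the cells were grouped by the gate. Nr4a1 (chr15:101254269-101274795, plus strand), the nuclear receptor needed for nonclassical monocytes, was at 8.82 CPM with 2 gate genes and at 28.8, 85.2, 142 and 188 CPM with 3, 4, 5 and 6. The eosinophil-type ribonuclease Ear2 went from 25.5 to 115, 232, 508 and 602 CPM, and Itgal, the LFA-1 alpha chain, from 166 to 266, 452, 662 and 759 CPM. These values pool the mice, whose shares differ between the classes. Within each mouse all 3 genes were higher with 4 to 6 gate genes than with exactly 3. Ear2 stood at 126, 260.0, 154 and 59.6 CPM with exactly 3 and 581, 724, 356 and 206 CPM with 4 to 6, and Itgal at 357, 267, 289 and 194 CPM and 797, 769, 517 and 435 CPM. The level of Nr4a1 was 45.9, 56.2, 30.7 and 15.8 CPM in cells with exactly 3 gate genes and 198, 149, 100.2 and 83.5 CPM in those with 4 to 6. Immunized mouse 2 was lowest in both classes for each gene.

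Other transcripts ran against that order. C1qa, a subunit of complement C1q made by tissue macrophages, was at 643 CPM with 2 gate genes and at 454, 227, 142 and 61.9 CPM with 3 to 6, though not in unimmunized mouse 1 (46.5 CPM with 2 and 128 CPM with 3). The granule protease Gzma of cytotoxic lymphocytes was at 437 CPM just outside the gate, 188 CPM just inside and 9.91, 67.0 and 5.27 CPM with 4, 5 and 6 gate genes, and by mouse at 524, 562, 147 and 19.6 CPM in cells with exactly 3. Among gated cells, those at the edge of the gate in unimmunized mice thus held the most Gzma. Ly6c2, the antigen of classical monocytes, was highest in the middle, at 481, 627, 642, 441 and 258 CPM with 2 to 6 gate genes, and the chemokine receptor Ccr2 was at 669, 749, 606, 489 and 357 CPM. Over all mice, cells with 6 gate genes had the least of both, along with the least C1qa. By mouse, Ly6c2 was higher with 4 to 6 gate genes than with 3 in the unimmunized mice (497 against 465 CPM and 879 against 696 CPM) and lower in the immunized mice (508 against 855 CPM and 418 against 479 CPM).

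**Figure D2:**
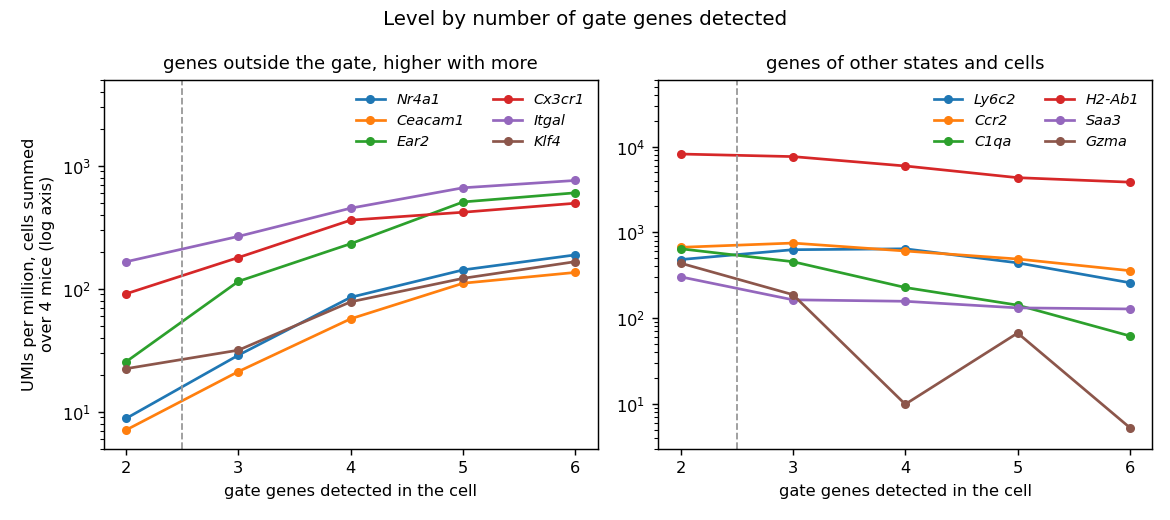
Level in CPM (log axis, all mice together) of 6 genes that went up with the number of gate genes detected (left) and of 6 that did not (right), for cells with 2 to 6 gate genes; the dashed line marks the gate. Nr4a1 goes from 8.82 to 188 CPM, while C1qa goes from 643 to 61.9 CPM.

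To ask which other transcripts went with the gate, UMI counts were summed per mouse and population and fitted across all genes with edgeR, leaving the gate genes out. Of 10789 genes tested, 162 rose in gated cells against the other Csf1r-positive cells (1.5%) and 14 fell (0.13%). With the mouse as a block, which pairs the populations of each animal, 714 rose (6.62%) and 409 fell (3.79%), and all 176 calls of the unpaired fit were among them with the same direction. No call was left when either unimmunized mouse was left out (1420 and 1236 genes then had an unadjusted p under 0.05), while 455 were made without immunized mouse 2. Since the gate was set on RNA of these same cells, the tests describe what accompanies the gate genes.

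Of nonclassical markers outside the gate, 9 of 15 tested rose and none fell, or 13 with the mouse as a block, and their median log2 fold change was 1.51 against -0.02 over all genes. Nr4a1 stood at 122, 104, 66.2 and 35 CPM in the gated cells of the 4 mice and at 17.0, 4.46, 6.56 and 3.04 CPM in the others. The populations did not overlap. It rose by 3.31 ± 0.38 (log2, SE; adjusted p = 0.00967). Ceacam1, an adhesion molecule of the immunoglobulin family, stood at 79.2, 111, 53.9 and 21.7 CPM against 7.89, 5.45, 8.58 and 3.50 CPM, again apart, with a rise of 3.16 ± 0.38 (adjusted p = 0.0115).

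Ear2 stood at 353, 502, 257 and 101 CPM in gated cells and 86.4, 45.6, 25 and 5.97 CPM in the others. Its rise was 3.07 ± 0.49 (adjusted p = 0.026), with the caution that reads of near-identical Ear genes may be split among copies. The G protein subunit Gngt2 was at 1380, 1778, 1941 and 1353 CPM against 439, 461, 733 and 465 CPM, and rose by 1.60 ± 0.18 (adjusted p = 0.00967). In both genes the populations were apart in all mice, by the least for Ear2 between immunized mouse 2 (gated) and unimmunized mouse 1 (other). Adgre4, an adhesion receptor of the EGF-TM7 family, rose by 1.34 (adjusted p = 0.0333).

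Cx3cr1, the fractalkine receptor that defines nonclassical monocytes, was less clear. It stood at 330, 391, 341 and 137 CPM in gated cells and 152, 114, 132 and 29.4 CPM in the others, higher in each mouse, but the gated cells of immunized mouse 2 lay below the other cells of unimmunized mouse 1. Its log2 difference of 1.46 ± 0.45 did not pass (adjusted p = 0.195) and did so once animals were paired (adjusted p = 1.14e-05). The Fc receptor gene Fcgr4 stood at 87.3, 155, 128 and 124 CPM against 25.4, 23.3, 43.7 and 122 CPM (adjusted p = 0.101, or 0.000869 with the block), and only in immunized mouse 2 were the populations alike.

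Of 19 transcription factor genes of monocyte fate tested, 5 rose (Nr4a1, Cebpb, Pou2f2, Bcl6 and Hes1) and none fell, and with the mouse as a block 9 rose and 3 fell; the median of the group was 0.19. Cebpb, which encodes C/EBPβ, stood at 1262, 1512, 1350 and 1186 CPM in gated cells and 319, 260, 598 and 836 CPM in the others, and rose by 1.51 ± 0.14 (adjusted p = 0.0094). Its gated-cell level hardly varied between mice, whereas that of the other cells was higher in both immunized mice. Pou2f2, which encodes OCT2, stood at 408, 488, 361 and 171 CPM against 77.7, 48.6, 99.9 and 48.1 CPM and rose by 2.29 ± 0.30 (adjusted p = 0.0153).

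The repressor Bcl6 rose by 1.52 ± 0.18 (adjusted p = 0.0107), and the Notch target Hes1 by 1.97 ± 0.34 (adjusted p = 0.0336). Klf2, a regulator of vascular patrolling and egress, was at 281, 350, 213 and 87.7 CPM in gated cells and 129, 84.8, 70.1 and 37.6 CPM in the others. It was higher in each mouse but missed the threshold (1.48 ± 0.30, adjusted p = 0.0581), as did Klf4 (1.18 ± 0.30, adjusted p = 0.11). Both passed when animals were paired (adjusted p = 7.32e-06 and 2.64e-05).

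Among 15 integrin and adhesion genes 4 rose, or 7 with the block, with a median of 0.34. Itgal stood at 576, 529, 405 and 262 CPM in gated cells against 177, 80.8, 123 and 114 CPM, without overlap, and rose by 1.76 ± 0.22 (adjusted p = 0.0139). Its partner chain Itgb2 rose by 0.74 (adjusted p = 0.034). Itga4 and Itgb1, which pair as VLA-4, rose by 1.11 ± 0.13 (adjusted p = 0.0102) and 0.67 (adjusted p = 0.0262). Hence both chains of LFA-1 and of VLA-4 were higher in gated cells.

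S1pr5, the sphingosine-1-phosphate receptor used by nonclassical monocytes and natural killer (NK) cells to enter the circulation, was the 1 riser of 10 chemokine and egress receptors tested, a group with a median of -0.09 in which 3 rose and 3 fell with the block. It stood at 44.3, 40.4, 20.8 and 2.67 CPM in gated cells against 2.86, 1.49, 0.820 and 0.214 CPM. The rise was 4.39 ± 0.63 (adjusted p = 0.0201), and the lowest gated level, in immunized mouse 2, was under the highest level of the others. NK genes were counted beside it because they share S1pr5: Gzma stood at 278, 269, 93.9 and 14.7 CPM in gated cells and 186, 111, 48.1 and 16.6 CPM in the others (adjusted p = 0.54, or 0.0125 with the block). Their part in the S1pr5 result was not tested.

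A few receptors of the innate immune system rose. Of 13 TREM, CD300 and related receptors tested, 3 rose, or 6 with the block, at a group median of 0.33. Trem3 stood at 99.6, 131, 155 and 123 CPM against 18.5, 32.2, 56.9 and 62.6 CPM and rose by 1.68 ± 0.20 (adjusted p = 0.0102). Cd300ld rose by 1.32 ± 0.15 (adjusted p = 0.00967) and Cd300lb by 0.80 (adjusted p = 0.0374). Lilra5, an activating leukocyte immunoglobulin-like receptor, stood at 62.6, 128, 87.7 and 68.4 CPM against 12.2, 8.93, 26.5 and 28.9 CPM and rose by 2.18 ± 0.21 (adjusted p = 0.0094). For both genes every gated value lay above every other value.

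Among 14 peptidoglycan and Toll-like receptor genes tested 2 rose, or 5 with the block, at a median of 0.16. Tlr7, an endosomal sensor of single-stranded RNA with which nonclassical monocytes watch over vessels, stood at 72.4, 90.9, 67.1 and 39.4 CPM against 28.2, 26.8, 27.3 and 16 CPM. The populations were apart, and it rose by 1.38 ± 0.23 (adjusted p = 0.0281). Tlr13, a sensor of bacterial ribosomal RNA, rose by 1.1 (adjusted p = 0.0262).

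Among called genes whose log2 CPM averaged 4 or more, the largest rise was that of a lipid chaperone. Fabp4 (chr3:10204088-10208576, minus strand) stood at 73.7, 121, 61.1 and 14 CPM in gated cells and 3.40, 2.48, 2.13 and 0.75 CPM in the others, and rose by 4.81 ± 0.54 (adjusted p = 0.00967). Pparg, a lipid-sensing nuclear receptor, stood at 32.4, 43.8, 18.3 and 12.3 CPM against 4.90, 3.97, 4.88 and 2.73 CPM and rose by 2.48 ± 0.26 (adjusted p = 0.00967). In both genes every gated value lay above every other value. These were the only 2 risers of 15 lipid-handling genes by the unpaired fit, 4 rose with the block, and the median of that group was 0.11.

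Several other of the largest rises were of signalling genes. Cyth3, an exchange factor for ARF GTPases, rose by 2.24 ± 0.22 (adjusted p = 0.0094). The MAP kinase phosphatase gene Dusp16 rose by 1.87 ± 0.13 (adjusted p = 0.00596), the calcineurin regulator Rcan1 by 1.87 ± 0.35 (adjusted p = 0.045) and the kinase gene Stk10 by 1.72 ± 0.26 (adjusted p = 0.0242). Dusp16 had the smallest SE of these genes, with 72.4, 97.6, 40.9 and 40.4 CPM in gated cells against 15.2, 14.9, 14.2 and 17.0 CPM in the others.

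Survival genes of the BCL2 family and type I interferon response genes did not pass in the unpaired fit. Of 12 BCL2 family genes tested, none was called, but 8 rose with the mouse as a block, at a median of 0.38. Bcl2 itself stood at 89.8, 53.9, 40.5 and 23.0 CPM in gated cells and 62.2, 36.2, 12.8 and 11.1 CPM in the others (1.00 ± 0.23, adjusted p = 0.0853, or 0.000156 with the block). Of 18 type I interferon response genes, none was called and 8 rose with the block, at a median of 0.27. No change was called by either fit in 9 MHC class I genes (median 0.04).

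Classical monocyte genes had no common direction against the other Csf1r-positive cells, a mixed population of monocytes and macrophages. Of 11 tested, 2 rose and none fell, at a median of 0.11, and with the block 4 rose and 3 fell. Ly6c2 stood at 481, 791, 678 and 462 CPM against 382, 638, 761 and 523 CPM, higher in the unimmunized and lower in the immunized mice (0.02 ± 0.25, adjusted p = 0.999). Ccr2 stood at 477, 559, 798 and 566 CPM against 722, 589, 980 and 688 CPM, lower in each mouse by a margin that passed in the paired fit (adjusted p = 0.0114) and not in the unpaired fit (adjusted p = 0.358). Hp, which encodes the hemoglobin scavenger haptoglobin, rose by 1.80 ± 0.33 (adjusted p = 0.0416), and Plac8 by 0.79 (adjusted p = 0.0485).

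Genes that fell were few by the unpaired fit. Lyz1, a lysozyme gene, stood at 317, 219, 217 and 119 CPM in gated cells and 842, 792, 623 and 472 CPM in the others, and fell by 1.67 ± 0.20 (log2, adjusted p = 0.0116). Clec10a, a galactose-binding lectin of dendritic cells and macrophages, stood at 21.3, 13.5, 32.7 and 29.3 CPM against 103, 54.1, 133 and 65.8 CPM and fell by 1.87 ± 0.30 (adjusted p = 0.0262). The endosomal tetraspanin Cd63 fell by 1.34 ± 0.23 (adjusted p = 0.0321). In all 3 genes the gated cells of every mouse lay under the other cells of every mouse. Lyz1 has a close copy, Lyz2, between which reads may be shared.

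Smaller falls, under 1.3 on the log2 scale, a bound set after they were seen, included those of Socs2, a suppressor of cytokine signals, the leukotriene receptor Cysltr1, the RNA-binding gene Celf4, the lysosomal nucleoside transporter Slc29a3 and Tmem86a. The chemokine Ccl2, which calls CCR2-bearing monocytes, was the 1 faller of 16 cytokine and chemokine genes tested in the unpaired fit, and with the block 5 fell. It stood at 4.26, 6.73, 2.68 and 3.33 CPM against 10.7, 7.44, 12.2 and 12.1 CPM and fell by 1.55 ± 0.23 (adjusted p = 0.0236), though its levels were low in both populations.

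Macrophage and antigen presentation genes were lower in gated cells when animals were paired. Of 9 C1q macrophage markers tested none was called unpaired and 7 fell with the mouse as a block, at a median of -0.97. C1qa stood at 129, 23.6, 170 and 748 CPM in gated cells and 257, 403, 519 and 1057 CPM in the others (adjusted p = 0.318, or 0.00464 with the block). Immunized mouse 2 had the most in both populations. Of 6 medullary sinus markers all 6 fell with the block, at a median of -1.3, among them the scavenger receptor Marco at 11.1, 6.73, 2.91 and 0.667 CPM against 68.0, 24.3, 26.5 and 1.18 CPM (adjusted p = 0.33, or 5.3e-06 with the block).

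Of 9 MHC class II presentation genes none was called unpaired and 7 fell with the block, at a median of -0.64. H2-Ab1, a beta chain of MHC class II, stood at 4537, 3791, 5862 and 9111 CPM in gated cells and 6923, 8213, 9202 and 10491 CPM in the others, lower in each mouse (-0.66 ± 0.17, adjusted p = 0.126, or 0.00222 with the block). The gated cells of immunized mouse 2 lay within the range of the other cells.

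RNA of the lineage locus itself was low in both populations. Siglec1 RNA stood at 12.3, 10.1, 11.2 and 18.7 CPM against 18.1, 14.9, 15.4 and 28.8 CPM, lower in each mouse (adjusted p = 0.447, or 0.0372 with the block), and tdTomato RNA at 6.39, 10.1, 3.8 and 4.67 CPM against 3.40, 1.49, 5.44 and 6.25 CPM (adjusted p = 0.62). Neither transcript set the gated cells clearly apart, in a sort in which all cells had been chosen as TOM+. Of 9 angiotensin pathway genes only Anpep, a peptidase, had enough counts to test. Agt, Agtr1a, Agtr1b, Agtr2 and Ren1 had no UMI in gated cells, which allows a level of up to 0.297 CPM over all 4 mice (3 counts). RNA for angiotensinogen, renin and the angiotensin II receptors was thus not detectable at this depth in the cells with the most Ace.

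**Figure D3:**
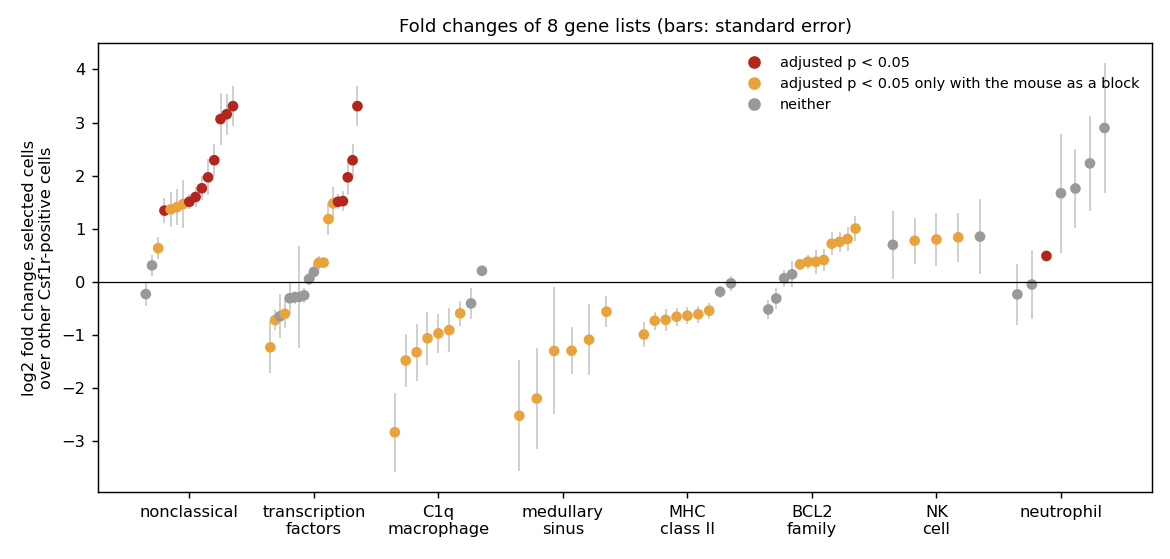
Log2 fold change of gated against other Csf1r-positive cells for each tested gene of 8 groups, with SE bars; red points passed the unpaired fit, orange points only the fit with the mouse as a block, grey points neither. Of the nonclassical markers 9 of 15 are red, whereas the medullary sinus markers are all orange and below 0.

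Markers of other cell types moved with the population and the mouse. NK cell markers summed to 395, 323, 121 and 23.0 CPM in gated cells and 282, 156, 60.6 and 20.7 CPM in the others, with Gzma as the most abundant. T cell markers summed to 291, 118, 78.3 and 24.3 CPM against 615, 224, 57.4 and 16.3 CPM, led by Cd3d. Neutrophil markers summed to 347, 125, 124 and 801 CPM against 97.4, 76.9, 228 and 115 CPM, led by S100a9 at 131, 3.37, 5.14 and 380 CPM in gated cells. Of the 11 neutrophil markers 9 were found in gated cells, Lcn2 and Retnlg among them, and 2, Ngp and Ltf, were at 0. Of 7 tested, 5 lay above 0 and Csf3r rose, at a median of 1.67. B cell markers, led by Cd79b, summed to 43.4, 43.8, 134 and 25.3 CPM against 78.9, 54.1, 81.4 and 22.2 CPM. Type 1 dendritic cell markers, led by Wdfy4, summed to 229, 47.1, 57.5 and 34.3 CPM against 128, 55.5, 36.7 and 39.7 CPM. All 4 had a fold change above 0, and 2 rose with the block. With cells that held several B or T cell genes left out, 194 genes were called in place of 176, and 156 were shared. Rises then numbered 164 in place of 162, and falls 30 in place of 14. The part of NK, neutrophil and dendritic cell RNA in the result was not tested.

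The gated cells were next compared with Csf1r-positive cells that passed the classical gate but not the nonclassical one. With the 12 genes of both gates left out, 51 of 9993 genes rose in gated cells (0.51%) and 7 fell (0.07%). With the mouse as a block 426 rose (4.26%) and 279 fell (2.79%), and these included all 58 unpaired calls. Of those 58 genes, 47 were also called against the other Csf1r-positive cells, which is 81.0% of the 58 and 26.7% of the 176. The comparisons share the gated cells, and the classical-gate cells are themselves part of the other Csf1r-positive cells. The overlap that this sharing alone would give was not measured. Here too no call was left without unimmunized mouse 1 or 2 (1121 and 984 genes with an unadjusted p under 0.05), and 386 were made without immunized mouse 2.

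Against classical-gate cells all 15 nonclassical markers had a fold change above 0, at a median of 1.29, and 4 rose (Nr4a1, Itgal, Ear2 and Gngt2), or 11 with the block. Nr4a1 stood at 35.3, 2.32, 8.82 and 3.39 CPM in classical-gate cells, so the gated cells of immunized mouse 2, at 35 CPM, were level with the classical-gate cells of unimmunized mouse 1. It rose by 2.59 ± 0.43 (adjusted p = 0.0399). Ear2 stood at 74.6, 6.95, 21.2 and 6.90 CPM in classical-gate cells and rose by 3.32 ± 0.52 (adjusted p = 0.035). Fabp4 again had the largest rise at that level of expression (5.17 ± 0.68, adjusted p = 0.029).

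Bcl2 passed in this comparison. It stood at 33.5, 37.1, 7.19 and 7.81 CPM in classical-gate cells, below the gated cells of the same mouse in all 4 cases, and rose by 1.58 ± 0.21 (adjusted p = 0.029). The part of NK and other lymphocyte RNA, given below, in this rise was not tested. The tetraspanin Cd9 stood at 173, 145, 58.2 and 50.4 CPM in gated cells against 46.8, 18.5, 14.9 and 22.0 CPM and rose by 1.78 ± 0.22 (adjusted p = 0.0271). The signalling adaptor Stap1 stood at 199, 158, 137 and 87.0 CPM against 67.1, 39.4, 35.6 and 16.8 CPM and rose by 1.84. For Cd9 and Stap1 the gated cells of every mouse lay above the classical-gate cells of every mouse. Cyth3, Lilra5 and Dusp16 rose by 2.27, 2.13 and 2.09.

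Among markers of other cell types, those of NK cells summed to 160, 60.2, 12.6 and 8.16 CPM in classical-gate cells, below the gated cells of each mouse. B cell markers summed to 34.1, 37.1, 39.8 and 22.6 CPM there, near the gated cells except in immunized mouse 1. Neutrophil markers summed to 191, 104, 143 and 137 CPM, above the gated cells in immunized mouse 1 and below them in the other mice. T cell and type 1 dendritic cell markers had medians of 0.69 and 1.04, and 2 of each rose with the block. Their sums were higher in gated than in classical-gate cells except in unimmunized mouse 2, at 118 against 181 CPM and 47.1 against 51.0 CPM. Medians of C1q, medullary sinus and inflammatory macrophage markers were -0.32, -0.27 and -1.05. Of 5 NK genes tested, all above 0 at a median of 1.87, Ncr1, an activating receptor of NK cells, rose by 1.87 (adjusted p = 0.0381), and 3 rose with the block. The 4 B cell genes tested had a median of 2.01 and the 7 neutrophil genes of 1.32, with none called. Ncr1 stood at 53.2, 30.3, 9.84 and 4.00 CPM in gated cells, with far more in unimmunized than in immunized mice. Leaving out cells with several B or T cell genes gave 62 calls in place of 58; no NK gene entered that exclusion.

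Lyz2, the main lysozyme gene of monocytes, stood at 10365, 9972, 16093 and 19697 CPM in gated cells and 20507, 20421, 28008 and 25497 CPM in classical-gate cells, with no overlap, and fell by 0.85 ± 0.10 (adjusted p = 0.0271). The other falls were those of Gpr34, a receptor for lysophosphatidylserine (-1.15 ± 0.17, adjusted p = 0.035), Slc29a3, the adhesion glycoprotein gene Emb, Mcub of the mitochondrial calcium channel, the cholesterol carrier Npc2 and Tspo of the outer mitochondrial membrane.

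In further groups, no gene was called against classical-gate cells in the unpaired fit and some fell with the block. Of 16 glycolysis genes tested, 15 had a fold change below 0 and 8 fell with the block, at a median of -0.49. Of 13 interferon-gamma induced GTPases all had a fold change below 0 and 3 fell with the block, at a median of -0.38. The 18 type I interferon response genes, at a median of 0.27 against the other Csf1r-positive cells, were at -0.27 here, with 3 falls by the block. Of 9 MHC class II genes 7 fell with the block, at a median of -0.55. The acute-phase gene Saa3 stood at 42.1, 37.0, 165 and 237 CPM in gated cells and 104, 57.9, 421 and 962 CPM in classical-gate cells, lower in each mouse (adjusted p = 0.0845, or 4.98e-05 with the block).

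Surface protein was not used by the gate that chose the gated cells. It was measured with 6 antibodies whose counts were turned into centred log ratios (CLR, natural log of a count against the mean over the antibodies in the same cell). Ly-6c stood at 2.37, 2.77, 3.04 and 3.04 in gated cells of the 4 mice and at 1.67, 2.65, 2.71 and 2.82 in the other Csf1r-positive cells, higher in 4 of 4 mice by 0.340 ± 0.253 (SD, n = 4). CD11c stood at 0.29, 0.09, 0.34 and 0.60 against 0.54, 0.82, 0.65 and 1.04, lower in 4 of 4 mice by 0.433 ± 0.213 (SD). Each had p = 0.13 by a two-sided exact sign-flip test, the smallest that 4 mice can give, and 0.375 after adjustment over 6 antibodies. The log ratios of a cell are centred over the same 6 antibodies, so a lower CD11c raises the others, Ly-6c included. On log2 of the mean count plus 1, which is not centred, Ly-6c was higher in 3 of 4 mice, by 0.249 ± 0.525 (SD). CD11c was lower on that scale in 4 of 4 mice, with a difference of -0.629 ± 0.686 (SD).

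Classical-gate cells had been chosen in part by RNA of Ly6c2, a gene of the Ly-6c protein, so their Ly-6c values are given as a description with no test. They stood at 2.81, 3.91, 3.45 and 3.29, above the gated cells in 4 of 4 mice by a mean of 0.56. Within the gated cells it was lowest where all 6 gate genes were found, at 1.87, 1.66, 2.42 and 2.04 in the 4 mice, against 2.41, 2.68, 3.18 and 3.08 in cells with exactly 3. The mean difference in CD11c from classical-gate cells was -0.003. CD169, CD68, F4/80 and Ly-6g differed from the other Csf1r-positive cells by -0.0480, -0.0180, 0.0621 and 0.0969, with p between 0.25 and 0.75 for CD169, F4/80 and Ly-6g.

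**Figure D4:**
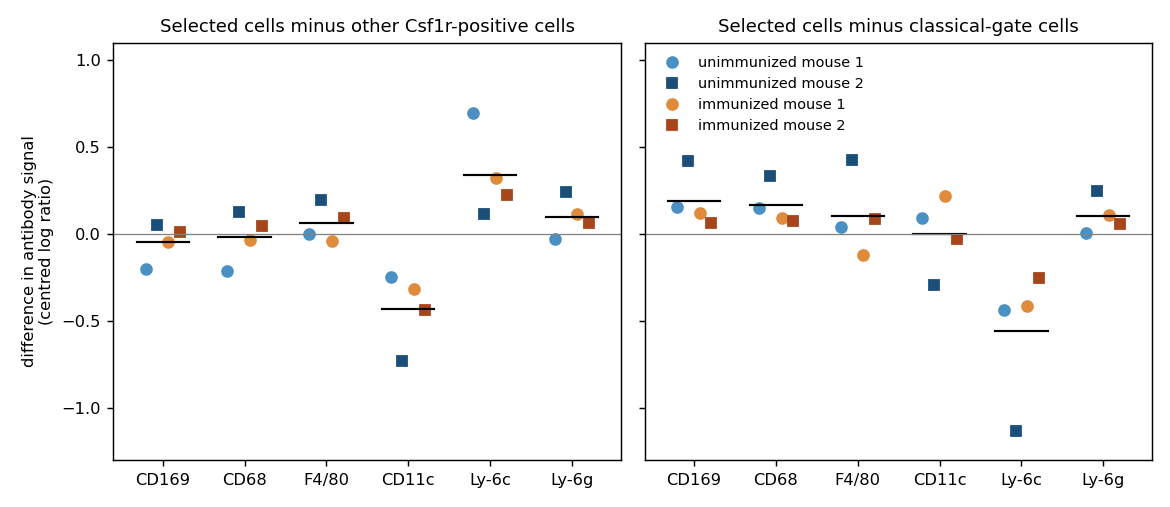
Difference in mean CLR between gated cells and other Csf1r-positive cells, and between gated and classical-gate cells, for 6 antibodies; points are the 4 mice and bars their mean. Ly-6c lies above 0 in the first comparison (mean 0.340) and below 0 in the second (mean -0.560, against cells chosen in part by Ly6c2 RNA), and CD11c lies below 0 in the first (mean -0.433).

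The share of gated cells among kept cells was 8.63% (exact 95% interval 7.62 to 9.72) and 7.08% (5.06 to 9.58) in unimmunized mice, and 9.82% (8.92 to 10.8) and 4.3% (3.74 to 4.92) in immunized mice. The intervals cover counting error only. The immunized mice lay on either side of the unimmunized mice, with means of 7.06 ± 3.91% and 7.85 ± 1.1% (SD, n = 2), and the difference of -0.79 percentage points gave p = 1.0 by an exact permutation test, in which 2 mice against 2 cannot go under 0.33. The make-up of the kept cells differed between mice, with Csf1r-positive cells at 39.5%, 50.3%, 70.1% and 89.96%, and its part in the share was not tested. As a percent of Csf1r-positive cells, gated cells were 20.1%, 13.3%, 13.8% and 4.76%, a difference of -7.46 points with p = 0.67 by the same exact permutation test, and the conditions again overlapped.

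The share moved when cells were thinned to a common depth and shallower cells left out, steps that were not tested apart. The deepest gated cells were those of immunized mouse 2, with a median of 12167 UMIs, and the shallowest those of unimmunized mouse 2, with 6950.5. With each cell thinned to 3000 UMIs, and 1049 shallower cells left out, the share was 5.23% and 5.16% in unimmunized and 4.28% and 0.804% in immunized mice. The conditions then no longer overlapped, and the difference of -2.65 points had p = 0.33 by the exact permutation test, the smallest possible. With at least 4 gate genes the shares were 5.06%, 4.10%, 5.58% and 1.25%, and the overlap returned.

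**Figure D5:**
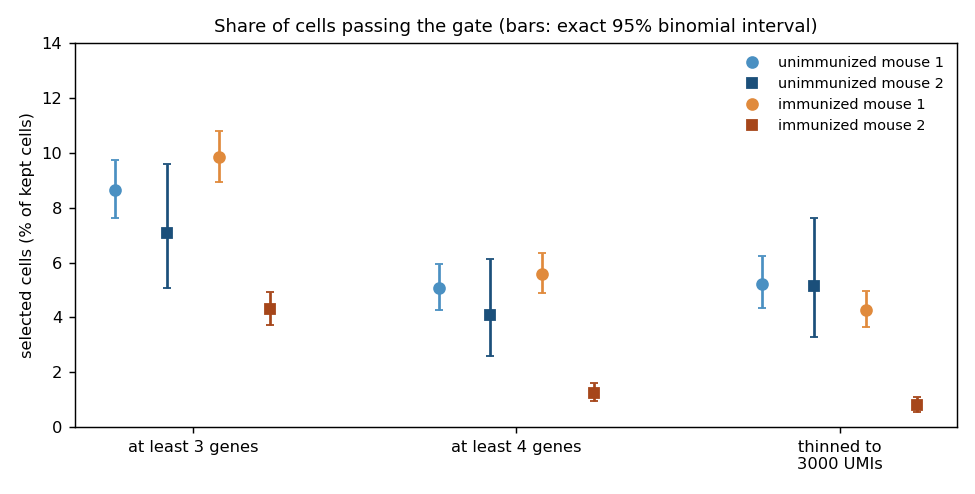
Percent of kept cells in each mouse that passed the gate with at least 3 genes, with at least 4 genes, and after thinning to 3000 UMIs, with exact 95% intervals. Immunized mouse 2 is lowest in each setting (4.3%, 1.25% and 0.804%).

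Immunization was next compared within the gated cells. Of 10789 genes none was called by edgeR (0.0%), with a smallest adjusted p of 0.433. At an unadjusted p under 0.05, 638 were higher and 560 lower in immunized mice, and DESeq2 called 35. In 22.8% of all genes both immunized mice lay above both unimmunized mice and in 19.7% below. These shares are the background for the groups given next.

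All 9 MHC class II genes lay higher in both immunized than in both unimmunized mice, at a median log2 difference of 0.88 against 0.003 for all genes. H2-Ab1, at the values given above for gated cells, differed by 1.00 ± 0.25 and H2-Eb1 by 1.09 ± 0.24 (adjusted p = 0.433 for each by edgeR, among the 35 by DESeq2). Both genes lay higher in the immunized mice in the other Csf1r-positive cells too, where H2-Eb1 stood at 7113 and 9005 against 9705 and 10311 CPM. H2-Ab1 also varied with the number of gate genes, which differed between mice. It stood at 5843, 4631, 6748 and 9704 CPM in cells with exactly 3 gate genes and at 3226, 3019, 5014 and 7614 CPM with 4 to 6, higher in the immunized mice in both classes. The 9 C1q markers had a median of 1.48 with 5 of 9 apart, and C1qa differed by 2.46 ± 0.81, mostly through the 748 CPM of immunized mouse 2. Of 11 complement genes 7 lay higher and 1 lower, of 16 glycolysis genes 7 and 1, and of 13 interferon-gamma induced GTPases 4 and 0.

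Saa3, at 42.1 and 37.0 CPM in unimmunized and 165 and 237 CPM in immunized mice, differed by 2.45 ± 0.48. The tetraspan gene Ms4a6d stood at 284 and 293 against 514 and 564 CPM, a difference of 1.05. In both genes the conditions were well apart, but the same levels in the other Csf1r-positive cells, 40.3, 22.8, 300.8 and 715 CPM for Saa3 and 176, 254, 532 and 509 CPM for Ms4a6d, were apart in the same direction.

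Of 15 nonclassical markers, 7 lay lower in both immunized than in both unimmunized mice and 1 higher, at a median of -0.44, with 9 below 0, 6 above 0 and none called. Most gated cells of immunized mouse 2 had exactly 3 gate genes, where markers such as Nr4a1 and Ear2 were lowest, and the part of this in the difference was not tested. Nr4a1 differed by -1.04 (adjusted p = 0.471) and Ear2 by -1.09 (adjusted p = 0.54). Cd9 stood at 173 and 145 CPM in unimmunized and 58.2 and 50.4 CPM in immunized mice (-1.44), and at 117, 76.4, 47.2 and 29.7 CPM in the other Csf1r-positive cells. The heat shock gene Hspa1b stood at 54.9 and 53.9 against 12.7 and 6.67 CPM (-2.32), and at 27.3, 22.3, 5.56 and 3.22 CPM in the other cells. Both genes were thus lower in the immunized mice in either population. Of 12 immediate early and heat shock genes, 6 lay lower and 1 higher in gated cells. NK and T cell genes went the same way: 4 of 5 NK markers and 5 of 9 T cell markers lay lower, at medians of -2.18 and -1.96. B cell markers did not, at a median of 0.56 with 3 of 5 above 0 and none apart between conditions. The part of lymphocyte genes in the other differences was not tested.

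Whether immunization acted unlike on gated and other Csf1r-positive cells was tested as an interaction. No gene of 10789 passed (0.0%), with 191 at an unadjusted p under 0.05 and 1 called by DESeq2. With the mouse as a block 10 genes were higher (0.0927%) and 1 lower (0.00927%). The 10 included the T cell genes Cd3d, Cd3e, Cd3g, Lck, Il7r and Trbc2. Cd3e stood at 31.1, 13.5, 11.9 and 1.33 CPM in gated cells and at 96.0, 36.7, 6.49 and 1.88 CPM in the others, so its drop between conditions was larger in the others. The 1 lower gene was Cebpb (-1.39, adjusted p = 0.0241 with the block and 1.0 without), whose level was between 1186 and 1512 CPM in the gated cells of all mice while that of the other cells went from 319 and 260 CPM to 598 and 836 CPM.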

How the data were processed

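Deposited UMI counts per gene and cell had been made by the authors with Cell Ranger 4.0.0 on the mm10-3.0.0 reference, with both captures combined, and the deposited antibody and hashtag counts came from CITE-seq-count. Neither table was normalised. Of 18662 barcodes, 12139 were kept: at most 25% mitochondrial UMIs, a barcode sequence found in 1 capture only, and 1 hashtag with at least 10 counts and 80% of hashtag counts. Doublets of 2 mice leave by the hashtag rule; doublets within a mouse were not called. The gate, the 32 gene lists and the tests were chosen with earlier results of these data known.

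UMI counts were summed per mouse and population (8 libraries) and tested with edgeR 4.0.16 (quasi-likelihood, TMM, filterByExpr, 4 groups of population and condition, Benjamini-Hochberg at 0.05 over all genes), with R 4.3.3. CPM divide by all UMIs of the population in the mouse, and 3′ counts were not divided by gene length. Antibodies and shares were tested over mice by exact tests (scipy 1.17.1), with Clopper-Pearson intervals. Mice are animals of their own, but p-values rest on 2 per condition.

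Named genes were up to 12 largest rises and 10 largest falls against the other Csf1r-positive cells (9 falls met the rule) and up to 8 of each against classical-gate cells (7 falls met it), among genes called with the same sign in every mouse and a log2 CPM that averaged 4 or more, plus examples from the lists; 1 gene that met this rule is not reported here. Both populations of a mouse come from the same animal, and their deviations from the group means correlated by 0.194 in unimmunized and 0.573 in immunized mice, so the mouse was used as a block in an alternative fit. Further alternatives were hashtag calls by HTODemux (Seurat 5.3.0, 9902 cells), a 10% mitochondrial limit, 4 gate genes, thinning to 3000 UMIs, single captures, removal of cells with lymphocyte genes, depth-matched compared cells, RLE factors, DESeq2 1.42.0, no filter and leaving out each mouse. The fits were tested on simulated data with known changes.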

Additional observations from a re-analysis of the deposited data

How the results depend on the processing

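Under the alternatives, none of the 21 and 15 genes with the largest changes against the other Csf1r-positive and the classical-gate cells turned its direction; genes named only as members of a list were not followed. The number of genes called against the other Csf1r-positive cells (176) and against classical-gate cells (58) became 52 and 21 with hashtags called by HTODemux, 745 and 422 with at least 4 gate genes, 1057 and 478 with the gate after thinning, 16 and 1 in capture 2 alone, 1123 and 705 with the mouse as a replicate block, 303 and 174 with DESeq2, and 866 and 714 with no filter on low counts. With at least 4 gate genes 175 of the 176 and 57 of the 58 calls were among them, and with HTODemux 50 and 17 calls were shared. Leaving out 1 mouse at a time gave 0 to 455 and 0 to 386 calls, with 0 when unimmunized mouse 1 or 2 was left out. One unimmunized mouse then stays and is assumed to vary like the other groups. The cause of these moves was not tested.

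Of these 21 and 15 genes, some of them in both sets, all lost their call without unimmunized mouse 1 or 2. In capture 2 alone 17 and 15 did so, and with HTODemux 10 and 9. In capture 1 alone 6 and 3 did so, with depth-matched compared cells 6 and 0 (127 and 65 calls in all), without immunized mouse 1 4 and 1, with RLE factors 2 and 0, with the 10% mitochondrial limit 2 and 0, and without cells with lymphocyte genes 1 and 0. None did so with the replicate block, DESeq2, at least 4 gate genes, thinning, no filter or without immunized mouse 2. For immunization within gated cells, 0 calls became 1 with the gate after thinning, 35 with DESeq2 and 597 with no filter, and 0 to 401 when 1 mouse was left out, the most without immunized mouse 1. No paired analysis was possible for that comparison because each mouse has only 1 condition. For the interaction, 0 calls became 11 with the replicate block, 1 with DESeq2 and 49 with no filter, and 0 to 1 when 1 mouse was left out.

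As a percent of Csf1r-positive cells, the difference in share was -7.46 points in place of -0.79. It was -3.12 points without cells with lymphocyte genes, -2.65 with the gate after thinning and -1.24 with HTODemux, where immunized mouse 2 had a share of 2.90%. HTODemux left that mouse with 60 gated cells of 2072, against 203 of 4722 by the 80% rule. The other mice then had 257, 40 and 445 gated cells, against 244, 38 and 398. Leaving out 1 mouse at a time, the share difference ran from -3.55 to 1.97 points. The antibody difference for F4/80 was 0.171 with the gate after thinning, against 0.0621. That for Ly-6c, 0.340 in 4 of 4 mice, became 0.151 with the gate after thinning and 0.177 with depth-matched compared cells. It became 0.235 with HTODemux and 0.313 in capture 1 alone, and in these settings only 3 of 4 mice were higher. With the other choices of cells Ly-6c was higher in 4 of 4 mice. With 1 mouse left out, CD11c ran from -0.495 to -0.334, Ly-6c from 0.221 to 0.414, CD169 from -0.0808 to 0.00420, CD68 from -0.0664 to 0.0473, F4/80 from 0.0168 to 0.0962 and Ly-6g from 0.0497 to 0.139. With no filter the median log2 difference of all genes against the other Csf1r-positive cells was -0.173 in place of -0.02. Unimmunized mouse 2, with 38 gated cells, limits the depth of each comparison.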
